A study of Mus musculus with 12 samples.

Results

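Tumors labelled 72 h after high intensity focused ultrasound (HIFU) were compared with tumors labelled 24 h, 3 arrays against 3 of the 12 in the series, over all 22206 probe sets. HIFU concentrates sound waves inside tissue, and the design text names its mechanical use, in which pressure rather than heat breaks tissue apart. The tumors were neuroblastomas raised in the inbred mouse strain A/J from inoculated cells that the labels do not name further, and the same holds for all groups. The 3 tumors of each of the 24 h and 72 h groups were HIFU treated, and the 3 control tumors, labelled as having no treatment, serve below only as a reference level. Mouse age and sex were not given in the sources used here. The labels give only a number of hours, so that it counts from the HIFU treatment is assumed. They also leave unsaid whether each tumor had its own mouse, so the p-values cover only the spread between the samples at hand, part of which may be technical.

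Injured tissue is entered first by neutrophils, which carry ready-made antimicrobial proteins in granules, and then by monocytes that mature into macrophages. Granule proteins such as myeloperoxidase are made while neutrophils mature in bone marrow, whereas their transcripts are scarce in mature circulating neutrophils. Interferon-gamma, secreted by lymphocytes, induces guanylate-binding proteins, immunity-related GTPases, T cell-attracting chemokines and the machinery that loads peptides on MHC class I.

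The deposited values are log2 signals, from 1.75 to 19.93, with array medians from 5.43 to 5.68. The lowest 25% of probe sets had mean signals up to 3.55, and values near or below that level are dim on these arrays. Arrays give no read depth, and 3 per group limits the precision. Neuroblastoma genes were measured in all 6 tumors: Th, which encodes tyrosine hydroxylase of catecholamine synthesis, had signals from 10.46 to 13.48, and Phox2a, a transcription factor of sympathetic neurons, from 6.56 to 10.12. The tumor labelled 72 h replicate 2 stood apart. Its signals correlated with those of the other 72 h tumors at 0.951 and 0.957 across probe sets, whereas replicates 1 and 3 correlated with each other at 0.993. It also had the highest array median, 5.68, and its 13 adrenergic neuroblastoma genes had a median of -1.87 log2 units relative to the control mean, against -0.06 in replicate 1 and 0.21 in replicate 3. Each main result is therefore also given without it. In bulk tumor RNA, fewer cells of a type and less RNA per cell cannot be told apart.

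No probe set passed the threshold. Of the 22206 tested with limma, 0 (0.0%) had an adjusted p below 0.05, and the smallest adjusted p, 0.096, belonged to Ibsp and Ltf. At an unadjusted p below 0.05 there were 1236, where 1110 would be expected by chance. Of the 1236, 715 were higher at 72 h (3.22% of the 22206 tested) and 521 were lower (2.35% of the 22206). The differences were lopsided in size, since 183 probe sets were at least 2 log2 units higher at 72 h and 23 were at least that much lower. The median difference over the 19505 named genes, each with 1 probe set, was -0.03, and 46.0% of them were higher at 72 h. The arrays did not overlap for 920 genes that were higher in all 72 h tumors than in any 24 h tumor (4.72%). For 926 genes they were lower in all (4.75%). With 3 arrays per group, shares of this size also arise by chance. The count of 0 changed on leaving out some single arrays. There were 3 without 72 h replicate 2 (Ltf, Ibsp and Trim63), and without 72 h replicate 3 there was 1 (Ltf). Without 48 h replicate 3, which enters only the shared estimate of the spread, 7 probe sets passed, all higher at 72 h. They were Ngp, Mpo, Ibsp, Ltf, Elane, Car1 and Alox12, the platelet-type lipoxygenase gene. This omission was added after seeing the data. Leaving out any other single array gave 0, and without 24 h replicate 1 the smallest limma adjusted p was 0.702. With the 6 compared arrays alone there were 2 (Ngp and Mpo). These percentages are the background for every gene list below, and because no gene passed the adjusted test, the values that follow are differences between these 6 tumors.

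**Figure D1:**
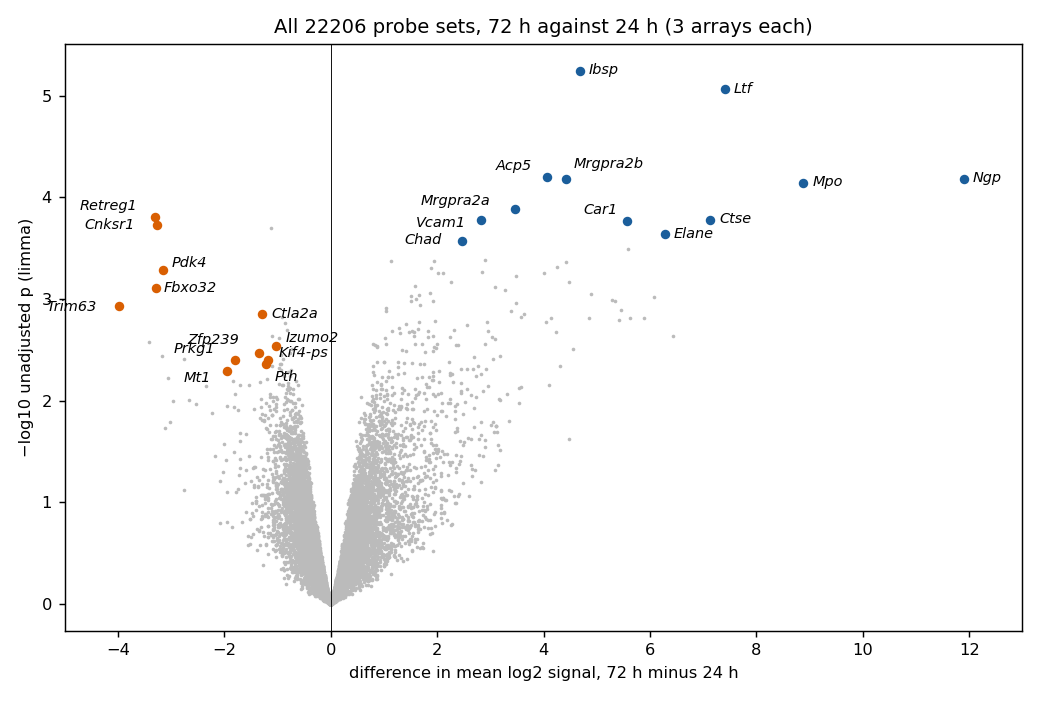
Difference in mean log2 signal, 72 h minus 24 h (x axis), against −log10 of the unadjusted limma p (y axis) for all 22206 probe sets (grey). Blue points are the 12 named genes with the lowest p among those higher at 72 h and orange points the 12 among those lower, and the points on the right reach 11.89 (Ngp) while those on the left reach -3.98 (Trim63).

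Neutrophil granule genes had the largest differences. All 22 measured genes of a neutrophil list were higher at 72 h, 17 of them without overlap between the groups, and their median difference was 4.42, against -0.03 over all named genes. At an unadjusted p below 0.05 there were 18 of the 22, and 0 passed the adjusted test. Ngp, which encodes neutrophilic granule protein, had log2 signals of 4.17, 3.13 and 4.57 at 24 h and of 15.76, 17.65 and 14.14 at 72 h. It was dim or low in every 24 h tumor, near the controls at 3.02, 3.13 and 3.06, and bright in every 72 h tumor. The difference was 11.89 ± 1.94 (limma SE; adjusted p = 0.265). The 24 h signals were near the dim end of the scale, so no fold is given. The primary granule enzyme myeloperoxidase, encoded by Mpo, was measured at 3.28, 3.08 and 3.81 at 24 h and at 11.55, 13.88 and 11.39 at 72 h. Again the groups lay far apart, with the 24 h values on the level of the controls, which ranged from 3.54 to 3.56. Mpo differed by 8.88 ± 1.47 (SE; limma adjusted p = 0.265).

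Ltf encodes lactoferrin, the iron-binding protein of secondary granules. Its signals were 2.98, 2.84 and 3.59 at 24 h and 10.13, 13.03 and 8.46 at 72 h. Thus 2 of the 24 h values were below the level of the dimmest 25% of probe sets, and the 72 h tumors were all bright. The difference was 7.40 ± 0.97 (SE; limma adjusted p = 0.096). Elane, the gene of neutrophil elastase, was at 3.90, 3.79 and 5.11 at 24 h and at 9.32, 12.59 and 9.71 at 72 h, a difference of 6.27 ± 1.19 (SE; limma adjusted p = 0.367). Mrgpra2b, a Mas-related G protein-coupled receptor gene, was at 5.04, 3.83 and 5.20 and then at 7.96, 11.00 and 8.39. Its neighbour Mrgpra2a was at 3.07, 2.78 and 3.44 and then at 5.39, 8.05 and 6.22. These receptors are close paralogs, so their probe sets may not be independent, and they differed by 4.43 and 3.46.

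The calprotectin genes and Lcn2 differed in another respect: they were already above the controls at 24 h. S100a8, which encodes a calprotectin subunit, was at 9.85, 3.78 and 8.86 at 24 h and at 12.90, 16.51 and 12.38 at 72 h, with controls from 2.54 to 3.26. Its partner S100a9 was at 10.62, 5.90 and 9.47 and then at 13.89, 16.95 and 13.39. In both genes replicate 2 of 24 h was far below the other 24 h tumors, and no 72 h tumor overlapped them. The differences were 6.43 ± 1.65 and 6.08 ± 1.38 (SE; limma adjusted p = 0.61 and 0.528). Lcn2, the iron-scavenging protein lipocalin 2, was at 14.87, 13.36 and 15.23 at 24 h and at 17.55, 18.81 and 15.95 at 72 h, where controls had 6.45, 6.53 and 8.09. It differed by 2.95 ± 0.74 (SE; limma adjusted p = 0.6), less than Ngp, Ltf and Mpo.

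C/EBP factors are known to drive granule genes as neutrophils mature. The windows from 250 bases before to 50 after the start of Ngp and Ltf are shown because these genes had the largest difference and the lowest p of the neutrophil list. The sequences are from RefSeq, build GRCm38.p6, Ngp on the plus strand at chr9:110419558-110419857 and Ltf on the plus strand at chr9:111019042-111019341, with matches to TTGCNNAA on either strand in capitals.
Ngp: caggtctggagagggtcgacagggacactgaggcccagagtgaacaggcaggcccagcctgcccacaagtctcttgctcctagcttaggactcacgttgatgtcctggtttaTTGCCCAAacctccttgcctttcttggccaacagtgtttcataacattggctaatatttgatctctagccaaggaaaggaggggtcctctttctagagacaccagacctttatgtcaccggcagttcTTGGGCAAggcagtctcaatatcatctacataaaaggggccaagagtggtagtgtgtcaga
Ltf: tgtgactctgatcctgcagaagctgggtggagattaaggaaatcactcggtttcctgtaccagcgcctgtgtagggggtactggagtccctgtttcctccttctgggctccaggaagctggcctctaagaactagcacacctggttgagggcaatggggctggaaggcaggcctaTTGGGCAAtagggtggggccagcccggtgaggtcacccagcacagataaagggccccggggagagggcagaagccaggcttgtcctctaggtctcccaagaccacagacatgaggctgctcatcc
Ngp had 2 matches and Ltf had 1. The motif was found in 4 of the 8 neutrophil genes searched and in 10.8% of all 27025 promoter windows of the same length. Mpo, Elane, Camp and S100a8 had no match in their windows, so genes with and without these letters were alike in being higher at 72 h.

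Genes of red cell precursors, platelets and bone were also higher at 72 h, though not all of them in every tumor. All 10 measured erythroid genes were higher at 72 h, 7 without overlap, with a median difference of 2.05. Car1, the erythroid carbonic anhydrase I, was at 3.78, 4.09 and 3.52 at 24 h and at 8.68, 11.26 and 8.16 at 72 h. Rhag, which encodes a red cell membrane channel of the Rhesus complex, was at 3.79, 3.5 and 3.56 and then at 8.61, 11.21 and 7.06. Both were at control level at 24 h and bright in each 72 h tumor, differing by 5.57 ± 1.02 and 5.34 ± 1.22 (SE; limma adjusted p = 0.341 and 0.528). Ermap, an erythroblast membrane protein gene, differed by 3.62 and Gata1, the erythroid and megakaryocyte transcription factor, by 1.04, both without overlap. Alas2, the haem synthesis enzyme of red cells, overlapped: it was at 6.58, 6.56 and 9.65 at 24 h and at 7.91, 11.15 and 6.89 at 72 h. Ctse, the gene of the aspartic protease cathepsin E, was not on this list but had the same layout, from 3.10, 3.02 and 2.86 to 9.72, 13.15 and 7.51, a difference of 7.13 ± 1.30 (SE; limma adjusted p = 0.341).

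Among 9 platelet and megakaryocyte genes 8 were higher at 72 h, 5 without overlap, with a median of 1.35. Ppbp, the platelet basic protein chemokine, was at 6.22, 4.32 and 7.11 at 24 h and at 11.23, 13.15 and 9.64 at 72 h, and differed by 5.46 ± 1.29 (SE; limma adjusted p = 0.569). Gp5 and Gp9, subunits of the platelet von Willebrand factor receptor, differed by 1.64 and 1.34, where Gp5 ranged from 2.49 to 2.93 at 24 h and from 3.49 to 5.22 at 72 h. Pf4, platelet factor 4, overlapped, at 11.03, 8.67 and 10.78 and then at 10.28, 14.48 and 9.79, and its controls spanned 7.76 to 12.53. Without 72 h replicate 2 the median of the list was 0.74.

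Ibsp had the lowest p of all probe sets. It encodes bone sialoprotein, a matrix protein of mineralising bone, and was measured at 2.96, 3.05 and 2.90 at 24 h and at 7.14, 9.05 and 6.75 at 72 h. The 24 h values were dim and nearly equal, close to the controls at 2.58 to 2.79, and every 72 h tumor was above them by several log2 units. Ibsp differed by 4.68 ± 0.59 (SE; limma adjusted p = 0.096). This error rests on a spread shared by all 4 groups. The SD of Ibsp was 1.23 at 72 h and 1.09 at 48 h, against 0.08 at 24 h and 0.12 in controls. The dim groups thus lowered the error and the p, and the shared spread was below that of the 72 h tumors. The same held for Ltf and Ctse above. Of 13 bone matrix and osteoblast genes, 11 were higher and 6 did not overlap, but the median was only 0.51, and 0.29 without 72 h replicate 2. Of the 13, 5 were among the dimmest 25% of probe sets. Chad, the gene of chondroadherin in cartilage and bone matrix, was at 2.71, 2.55 and 3.25 and then at 4.65, 6.67 and 4.59. It was dim in the 24 h tumors and above that level at 72 h, with a difference of 2.47 ± 0.47 (SE; limma adjusted p = 0.395).

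Osteoclasts are the macrophage-related cells that resorb bone, and 11 of 12 osteoclast genes were higher at 72 h, 6 without overlap, with a median of 1.54. Acp5, the tartrate-resistant acid phosphatase, was at 6.42, 6.58 and 6.44 at 24 h and at 9.69, 12.04 and 9.88 at 72 h. Its 24 h values lay below the controls, which were 9.31, 7.82 and 8.97, so the 72 h tumors were above both. It differed by 4.06 ± 0.66 (SE; limma adjusted p = 0.265). Car2, carbonic anhydrase II, which acidifies the resorption space and is also a red cell enzyme, was at 5.52, 4.90 and 6.01 and then at 9.94, 13.83 and 9.54. Mmp9, a gelatinase of osteoclasts and neutrophils, was at 5.10, 2.92 and 4.20 and then at 6.82, 10.70 and 6.84. Itgb3, the integrin beta 3 chain of osteoclasts and platelets, was at 6.31, 5.45 and 7.0 and then at 8.30, 10.17 and 7.65. These 3 genes are expressed by other cell types too, and Acp5 is also on the phagocytosis and lysosome list. Tnfrsf11a was the 1 osteoclast gene that was lower, by -0.18. The 6 list genes that overlapped between the groups included dim ones, since 3 of the 12 were among the dimmest 25% of probe sets.

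Vcam1 encodes an adhesion molecule that binds leukocytes, found on activated endothelium and on macrophages of marrow and spleen. It was at 6.90, 6.65 and 7.36 at 24 h and at 9.36, 10.46 and 9.57 at 72 h, with controls from 7.54 to 8.01. Each 72 h tumor was thus above each 24 h and each control tumor, and the difference was 2.83 ± 0.51 (SE; limma adjusted p = 0.341).

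In nearly all of these genes replicate 2 was the highest 72 h tumor. The other 72 h tumors were also far above the 24 h tumors in Ngp, Mpo, Ltf, Elane, Car1 and Ibsp. In other genes they were not: replicate 3 of 72 h was at 6.15 for Gp9 and 15.95 for Lcn2. Replicate 3 of 24 h was at 6.0 and 15.23 for these genes, and Alas2 and Pf4 overlapped. Without 72 h replicate 2, the difference was 10.99 for Ngp, 8.08 for Mpo, 6.16 for Ltf, 4.62 for Car1 and 3.98 for Ibsp. Ltf and Ibsp then passed the adjusted test, together with Trim63, as the only 3 probe sets to do so. The list medians without it were 3.42 for neutrophil, 1.40 for erythroid and 0.85 for osteoclast genes. Skeletal muscle genes, which mark muscle tissue in the sample, were spread within each group: 22 fast sarcomere genes were, at the median, 5.47, 2.31 and 2.93 log2 units above the control mean at 24 h and 2.21, 5.58 and 2.99 above it at 72 h. The neutrophil, erythroid and platelet list medians, relative to the control mean, were higher in each 72 h tumor than in each 24 h tumor. For platelets the margin was small, at 0.58 in 72 h replicate 3 against 0.52 in 24 h replicate 3. The bone matrix and osteoblast median was not higher in every 72 h tumor, at 0.08 in 72 h replicate 3 against 0.12 in 24 h replicate 3. The part of any of these cell types in the differences of the others was not tested.

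**Figure D2:**
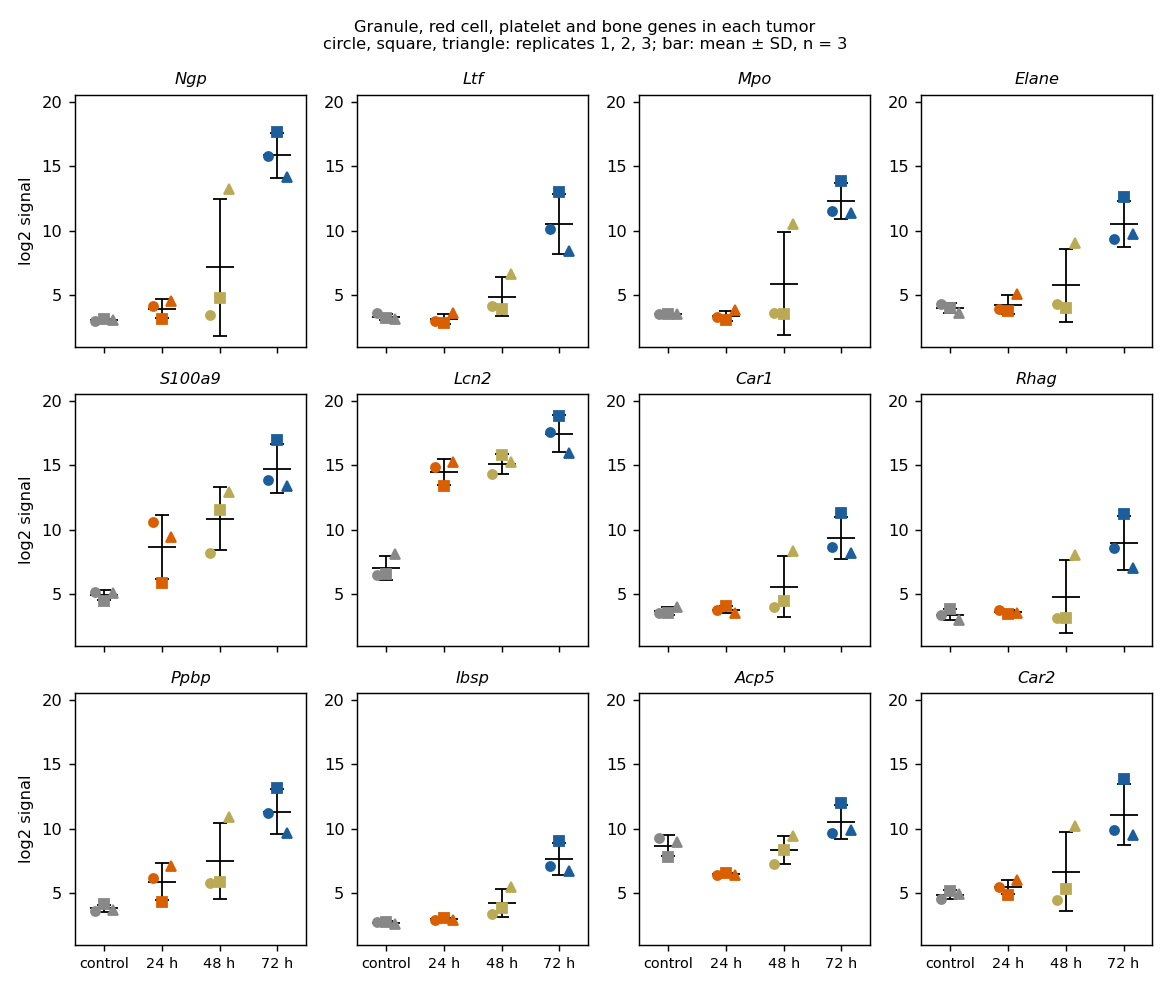
Log2 signal (y axis) of 12 granule, red cell, platelet and bone genes in each tumor by group (x axis); symbols are replicates 1 to 3 and bars give the mean ± SD (n = 3). All 72 h tumors lie above all 24 h tumors in every panel, and replicate 3 of 48 h, which is not part of the comparison, is also high in several panels, as in Ngp at 13.25.

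Monocyte and macrophage genes were higher by a smaller margin and with more dependence on single tumors. All 16 measured genes were higher at 72 h, but only 3 did not overlap, and the median was 1.50. Mpeg1, the macrophage pore-forming protein perforin-2, was at 8.42, 6.34 and 8.44 at 24 h and at 9.44, 13.20 and 9.87 at 72 h. Ly6c2, a marker of inflammatory monocytes, was at 9.74, 6.62 and 8.97 and then at 10.23, 13.96 and 10.27. In both, replicate 2 of 24 h was the lowest and replicate 2 of 72 h the highest of the 6 tumors, and the remaining tumors lay closer together. Adgre1, a macrophage surface marker gene, differed by 1.87 ± 0.70 (SE; limma adjusted p = 0.843) and the lysozyme gene Lyz2 by 2.14, the latter with overlap. Without 72 h replicate 2 the median of the list was 0.44, and without 24 h replicate 2 it was 0.59.

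The complement list behaved alike in its dependence on these tumors. All 13 measured genes were higher at 72 h, 1 without overlap, with a median of 1.25, which became 0.54 without 72 h replicate 2 and 0.65 without 24 h replicate 2. Cfp, the gene of properdin, which stabilises the alternative pathway convertase, was the 1 that did not overlap, at 10.92, 9.43 and 10.76 and then at 11.03, 14.10 and 11.50. C1qa, a chain of the recognition molecule C1q, differed by 1.25 and overlapped, as did the convertase components C2 and Cfb and the receptor gene C5ar1, at 0.85, 1.52 and 0.97. Of 17 genes of alternatively activated, wound-type macrophages, 8 were higher and 9 lower at 72 h, 3 were higher without overlap, and the median was -0.03, with a range from -0.43 to 0.71 on leaving out each array. Chil3, a chitinase-like protein gene also on the neutrophil list and named after its values were seen, was one of the separated genes, at 4.77, 3.74 and 5.87 and then at 9.08, 10.69 and 7.86. The other markers described here overlapped. Arg1, the gene of arginase 1, was at 10.20, 5.80 and 10.34 at 24 h and at 7.39, 10.22 and 8.37 at 72 h, a difference of -0.12 ± 1.51 (SE; limma adjusted p = 0.993). Mrc1, the mannose receptor gene, differed by 0.85 ± 1.05 and Cd163, the haemoglobin scavenger receptor gene, by -0.29 ± 0.99 (SE). The widths of these errors leave room for differences of more than 1 log2 unit either way.

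Genes induced by interferon-gamma were higher at 72 h, after being below the controls at 24 h. Of 19 measured, 18 were higher, 10 without overlap, 11 at an unadjusted p below 0.05 and 0 at an adjusted one, with a median of 2.24. Cxcl9, a chemokine that attracts activated T cells, was at 4.86, 3.83 and 6.13 at 24 h and at 8.41, 11.33 and 10.91 at 72 h. The 24 h tumors were all below the controls, at 11.47, 9.40 and 9.77, whereas 2 of the 72 h tumors were within the control range. Cxcl9 differed by 5.28 ± 1.21 (SE; limma adjusted p = 0.528). Igtp, an immunity-related GTPase gene, was at 4.88, 4.29 and 5.62 and then at 6.77, 8.44 and 8.28, against 10.35, 8.70 and 8.23 in controls. Irgm1, a regulatory GTPase of the same family, was at 7.69, 6.96 and 8.04 and then at 8.68, 10.65 and 10.07, against 11.94, 10.85 and 10.40. Iigp1, another GTPase gene, differed by 3.09 ± 0.80 (SE; limma adjusted p = 0.621). In each of these GTPase genes every 24 h tumor was below every control, and the highest 72 h tumor was within the control range.

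Irf1, the transcription factor that carries much of the interferon-gamma response, overlapped, at 8.41, 7.66 and 8.84 and then at 8.70, 9.58 and 9.59, a difference of 0.99 ± 0.50 (SE; limma adjusted p = 0.889). Ifng, the gene of interferon-gamma, was named after its values were seen: it overlapped and differed by 0.22. The type I interferon list, with 23 of 23 genes higher, 7 without overlap and a median of 0.92, was less far apart than the interferon-gamma list. Its gene Ifit1, an RNA-binding antiviral protein, overlapped, at 4.68, 3.54 and 6.05 and then at 4.65, 7.22 and 5.17. Without 72 h replicate 2 the median was 1.56 for interferon-gamma genes and 0.53 for type I genes, and the 22 measured T and NK cell genes, 12 of them among the dimmest 25% of probe sets, had a median of 0.18 with all tumors, of 0.014 without 72 h replicate 2 and of 0.027 without 24 h replicate 2.

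Interferon-stimulated response elements are bound by interferon regulatory factors. The windows of Igtp and Irgm1 are shown because both genes were higher in all 72 h tumors and hold such letters. They are from RefSeq, build GRCm38.p6, Igtp on the plus strand at chr11:58199306-58199605 and Irgm1 on the minus strand at chr11:48871371-48871670. Matches on either strand to GAAANNGAA, a form of the core of this element, are in capitals.
Igtp: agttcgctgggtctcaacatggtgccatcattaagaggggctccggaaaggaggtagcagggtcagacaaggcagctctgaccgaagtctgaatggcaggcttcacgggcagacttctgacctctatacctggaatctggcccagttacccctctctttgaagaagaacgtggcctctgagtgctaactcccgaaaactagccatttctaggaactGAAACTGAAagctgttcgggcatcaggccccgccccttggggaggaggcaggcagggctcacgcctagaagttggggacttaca
Irgm1: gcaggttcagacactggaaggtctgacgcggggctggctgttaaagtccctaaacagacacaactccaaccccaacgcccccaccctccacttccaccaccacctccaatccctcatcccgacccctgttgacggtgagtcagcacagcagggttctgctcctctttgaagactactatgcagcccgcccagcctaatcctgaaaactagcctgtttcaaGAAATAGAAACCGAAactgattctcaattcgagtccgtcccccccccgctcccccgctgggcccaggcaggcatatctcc
Igtp had 1 match, and Irgm1 had 2, which overlap each other. Of the 8 interferon and MHC class I genes searched, 4 held GAAANNGAA, against 8.57% of all 27025 windows. The windows searched of H2-K1, H2-D1, Psmb9 and Tapbp had no match to these letters, and 1 of the 2 windows of H2-K1 was searched. Other forms of the element were not searched, so a lack of match does not show that the element is absent. Both the H2-K1 and the H2-D1 window hold tttcacttc, a related form that GAAANNGAA does not cover.

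MHC class I genes were higher with little spread at 24 h. All 16 measured were higher at 72 h, 10 without overlap, 10 at an unadjusted p below 0.05 and 0 at an adjusted one, with a median of 1.24. H2-K1, a classical class I heavy chain, was at 13.60, 13.38 and 14.17 at 24 h and at 14.68, 15.75 and 15.23 at 72 h. The controls were at 16.04, 15.67 and 15.51, so replicate 2 of 72 h was within the control range and all other HIFU treated tumors of the comparison were below it. H2-K1 differed by 1.50 ± 0.34 (SE; limma adjusted p = 0.528). H2-D1, another class I heavy chain, was at 9.02, 8.61 and 8.90 and then at 9.99, 11.89 and 10.69, and differed by 2.01 ± 0.42 (SE; limma adjusted p = 0.455). Class I heavy chains are polymorphic and alike in sequence, so their probe sets may share signal.

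The genes that prepare peptides for class I were higher too. Psmb9, a catalytic subunit of the immunoproteasome, was at 4.49, 4.65 and 4.10 and then at 5.45, 7.06 and 6.49. Tapbp, which encodes tapasin of the peptide-loading complex, was at 11.28, 10.84 and 10.86 and then at 11.88, 12.58 and 12.32. In both, the lowest 72 h tumor was above the highest 24 h tumor, with differences of 1.92 ± 0.57 and 1.27 ± 0.36 (SE; limma adjusted p = 0.796 and 0.743). The median of the list was 0.92 without 72 h replicate 2. Of 10 MHC class II genes 8 were higher and 2 did not overlap, with a median of 0.67 that was 0.43 without 24 h replicate 2. H2-Aa, a class II alpha chain, was at 9.04, 7.57 and 9.03 and then at 9.98, 10.86 and 10.89, a difference of 2.03 ± 0.61 (SE; limma adjusted p = 0.806).

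Cd72, a B cell and myeloid co-receptor gene, was also lowest at 24 h. It was at 7.73, 6.71 and 7.71 at 24 h, at 9.85, 10.15 and 9.47 at 72 h and at 14.66, 11.72 and 11.77 in controls, so that 72 h lay between the others without overlap. The difference between 72 h and 24 h was 2.44 ± 0.76 (SE; limma adjusted p = 0.814). Cd274, which encodes the checkpoint ligand PD-L1, was at 6.58, 6.90 and 7.94 and then at 7.74, 9.29 and 8.89, overlapping in 1 pair of tumors, with a difference of 1.50 ± 0.87 (SE; limma adjusted p = 0.894).

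**Figure D3:**
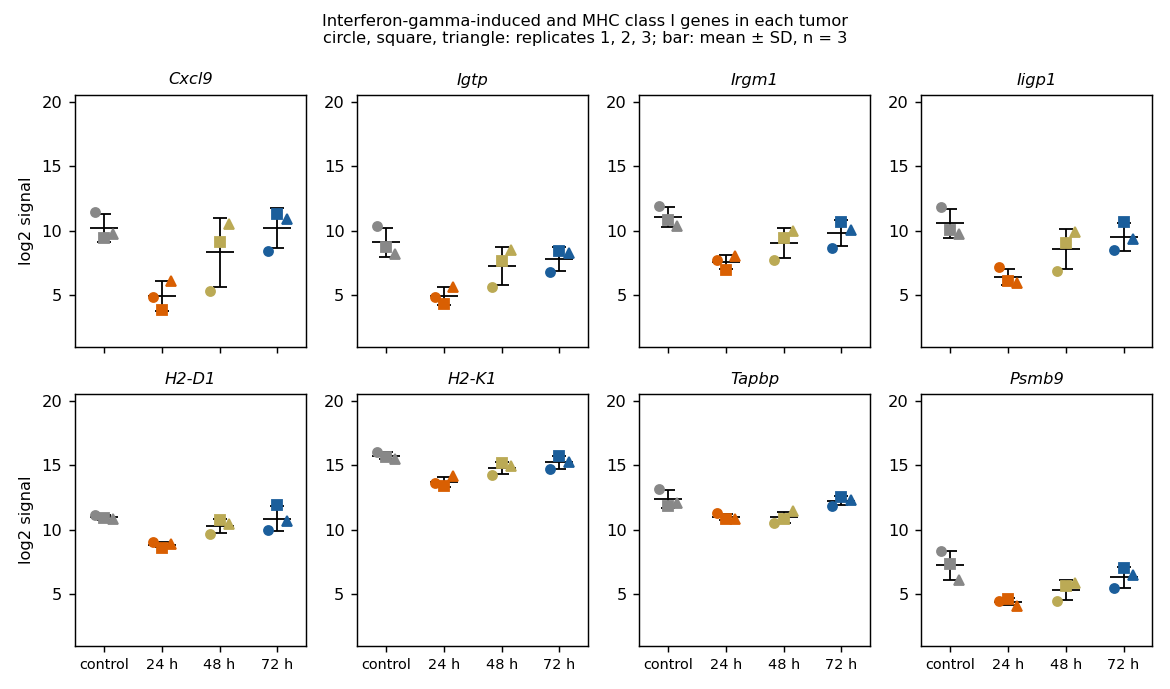
Log2 signal (y axis) of 4 interferon-gamma-induced and 4 MHC class I genes in each tumor by group (x axis); symbols are replicates 1 to 3 and bars give the mean ± SD (n = 3). In every panel the 24 h tumors lie below all 72 h tumors, and in Cxcl9 and H2-K1 at least 1 of the 72 h tumors lies within the range of the controls.

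Genes of the muscle atrophy programme were mostly lower at 72 h, though not in every tumor. Relative to the control mean, the list median was 2.73, 1.14 and 1.39 at 24 h. It was 0.83, 2.95 and 0.98 at 72 h, so 72 h replicate 2 was the highest of the 6 tumors. Of 17 measured, 13 were lower and 4 higher, 5 were lower without overlap, 6 were lower at an unadjusted p below 0.05 and 0 passed the adjusted test, with a median of -0.62. The differences were concentrated in a few genes. Trim63, which encodes the muscle ubiquitin ligase MuRF1, was at 14.85, 13.59 and 13.99 at 24 h and at 8.03, 12.68 and 9.77 at 72 h, with controls from 6.25 to 7.16. The 24 h tumors were uniformly high, and replicate 2 of 72 h stayed close to them while the other 72 h tumors were nearer the controls. Trim63 differed by -3.98 ± 0.93 (SE; limma adjusted p = 0.547). Fbxo32, the gene of the ubiquitin ligase atrogin-1, was at 13.38, 11.32 and 12.27 and then at 7.80, 10.40 and 8.93, a difference of -3.28 ± 0.72 (SE; limma adjusted p = 0.523).

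Pdk4, a kinase gene that shuts pyruvate out of the mitochondrial oxidation of sugar, was at 15.27, 14.48 and 14.82 and then at 10.34, 12.73 and 12.03. Retreg1, which encodes a receptor for the autophagy of the endoplasmic reticulum, was at 15.35, 14.25 and 14.94 and then at 10.58, 12.82 and 11.23. No 72 h tumor reached the 24 h range in either gene, and the differences were -3.16 ± 0.66 and -3.30 ± 0.60 (SE; limma adjusted p = 0.455 and 0.341). Cnksr1, a scaffold gene of Ras signalling, was at 8.73, 6.14 and 8.09 and then at 3.93, 5.17 and 4.05, with controls at 2.99 to 3.19. It differed by -3.27 ± 0.60 (SE; limma adjusted p = 0.341).

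Of these genes, Trim63, Fbxo32, Pdk4 and Retreg1 are on the muscle atrophy list, and which cells expressed them was not tested. Muscle tissue in the sample varied as given above, with 24 h replicate 1 and 72 h replicate 2 the richest in it. The 22 fast sarcomere genes had a median difference of -0.08, with 7 higher, 15 lower and 0 without overlap. Acta1, the skeletal actin gene, was at 19.77, 19.11 and 19.29 at 24 h and at 18.75, 19.82 and 19.43 at 72 h. The mean muscle level was 3.57 at 24 h and 3.59 at 72 h, so a fit with it as a covariate could hardly move any difference between these groups and shows nothing about the part of muscle. Without 72 h replicate 2, Trim63 differed by -5.24 and passed the adjusted test (limma adjusted p = 0.033), but the fast sarcomere median was then -1.23, and the median of the atrophy list was -1.0. Without 24 h replicate 1 the median of the atrophy list was -0.18.

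FoxO factors are known to drive Trim63 in wasting muscle. Its window is shown because Trim63 had the largest negative difference of the 12 leading lower genes. The sequence is from RefSeq, build GRCm38.p6, on the plus strand at chr4:134314870-134315169, with the match to GTAAACA on either strand in capitals.
Trim63: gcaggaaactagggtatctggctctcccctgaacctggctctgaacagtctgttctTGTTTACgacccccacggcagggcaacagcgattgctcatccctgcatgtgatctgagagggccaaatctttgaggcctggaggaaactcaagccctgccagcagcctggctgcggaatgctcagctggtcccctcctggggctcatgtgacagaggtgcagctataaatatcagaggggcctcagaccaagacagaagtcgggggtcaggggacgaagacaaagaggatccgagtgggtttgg
There was 1 match, on the minus strand. The window of Pdk4 had none, nor had the 1 window searched of the 4 of Retreg1. Thus 1 of 3 genes searched held the motif, against 3.55% of all 27025 windows. Fbxo32 had no window to search.

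Metallothioneins bind zinc and copper and are induced by metals, glucocorticoids and inflammation. Mt1 was at 19.29, 18.09 and 19.41 at 24 h and at 15.74, 18.08 and 17.10 at 72 h, with controls at 14.70, 14.04 and 14.36. The highest 72 h tumor was barely below the lowest 24 h tumor, and the values at 24 h were close to the top of the scale of these arrays, 19.93. Mt1 differed by -1.96 ± 0.57 (SE; limma adjusted p = 0.767). Mt2 was at 19.21, 17.11 and 18.74 and then at 14.57, 17.51 and 16.98, which overlapped, and differed by -2.0 ± 0.79 (SE; limma adjusted p = 0.844). Of the 15 metallothionein and acute phase genes 11 were lower, 2 without overlap, with a median of -0.33 that was 0.025 without 24 h replicate 3, -0.51 without 24 h replicate 2 and -0.17 without 72 h replicate 3, and Lcn2 of the same list was higher. Ptx3, the gene of the long pentraxin 3, differed by -0.60 with overlap.

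The metal response element is the site of the zinc-sensing factor MTF-1. The window of Mt1 is shown because it holds several such elements next to the start. It is from RefSeq, build GRCm38.p6, on the plus strand at chr8:94178839-94179138, with matches to TGCGCNC and TGCACNC on either strand in capitals.
Mt1: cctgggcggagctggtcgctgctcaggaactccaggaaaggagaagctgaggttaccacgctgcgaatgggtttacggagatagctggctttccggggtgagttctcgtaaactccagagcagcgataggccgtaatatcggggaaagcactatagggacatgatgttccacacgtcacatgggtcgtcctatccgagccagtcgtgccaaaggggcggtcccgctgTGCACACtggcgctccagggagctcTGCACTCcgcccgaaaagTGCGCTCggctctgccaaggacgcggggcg
Mt1 had 1 match to TGCGCNC and 2 to TGCACNC, and Mt2 had 2 to each. These letters are also common elsewhere, being held by 15.5% and 12.4% of all 27025 windows.

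Heat shock genes were lower at 72 h in 11 of 13 cases, 3 without overlap, with a median of -0.60. The list median relative to the control mean was 1.63, 0.33 and -0.12 at 24 h. It was 0.16, -0.25 and 0.52 at 72 h, so only 24 h replicate 1 was above all 72 h tumors. Hspb1, which encodes the small heat shock protein HSP25, was at 11.71, 7.73 and 9.07 at 24 h and at 5.68, 7.71 and 7.10 at 72 h. The highest 72 h tumor was again barely below the lowest 24 h tumor, and controls ranged from 4.43 to 5.97. Hspb1 differed by -2.67 ± 0.86 (SE; limma adjusted p = 0.82). Hspb7, the heat shock protein of heart and skeletal muscle, was at 18.93, 16.31 and 17.94 and then at 14.57, 16.38 and 14.65, and overlapped. The inducible HSP70 genes Hspa1a and Hspa1b, near-identical copies that may share signal, differed by -0.95 ± 0.40 and -0.96 ± 0.36 (SE; limma adjusted p = 0.866 and 0.843). The median of the list was -0.12 without 72 h replicate 2.

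**Figure D4:**
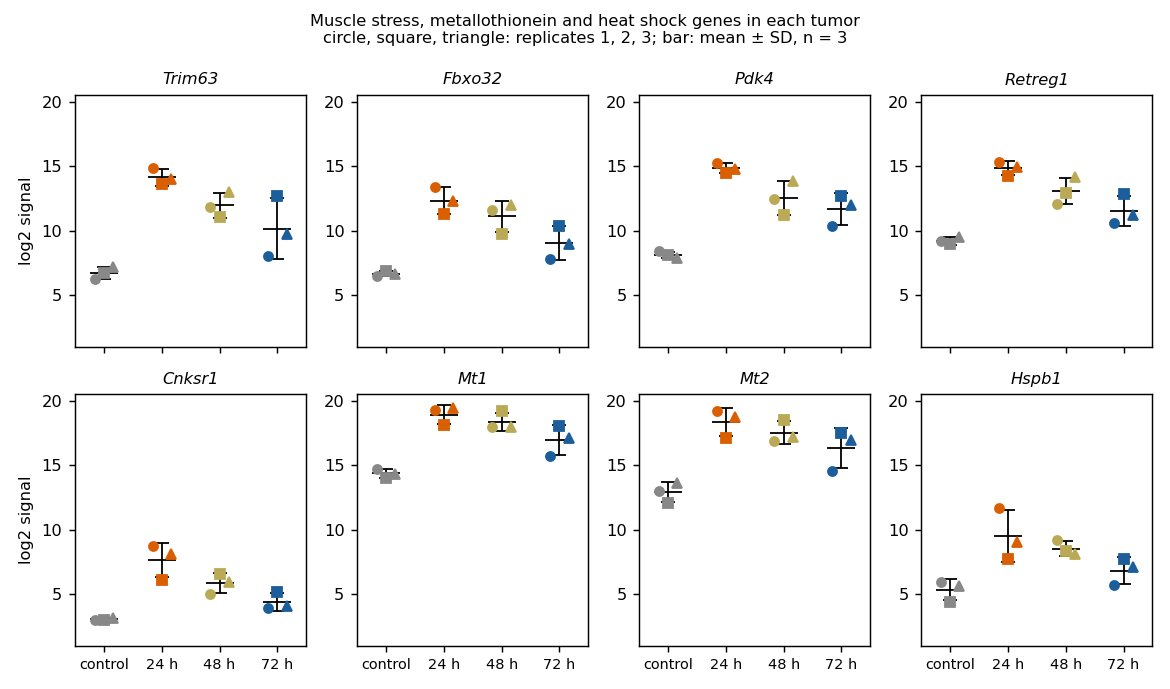
Log2 signal (y axis) of 8 genes in each tumor by group (x axis), namely Cnksr1 and muscle stress, metallothionein and heat shock genes. Symbols are replicates 1 to 3 and bars give the mean ± SD (n = 3). The 24 h tumors lie above all controls in every panel, and the 72 h tumors lie below all 24 h tumors in every panel except Mt2.

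The remaining genes among the 12 leading lower ones had smaller differences or dim signals. Ctla2a, a cysteine protease inhibitor gene, was at 13.65, 14.11 and 13.85 at 24 h and at 12.84, 11.91 and 12.99 at 72 h. It was bright in every tumor, its controls ranged from 13.13 to 13.71, and its difference was -1.29 ± 0.31 (SE; limma adjusted p = 0.581). Prkg1, a cyclic GMP-dependent protein kinase gene, differed by -1.80 ± 0.50 and Zfp239, a zinc finger protein gene, by -1.35 ± 0.37 (SE; limma adjusted p = 0.734 and 0.675). Izumo2, a relative of a sperm-egg fusion gene, the kinesin pseudogene Kif4-ps and Pth, the parathyroid hormone gene, differed by -1.03, -1.18 and -1.22. Their 72 h signals lay between 2.70 and 3.93, near the dimmest 25% of probe sets, and the signal of a pseudogene cannot be told apart from that of its parent gene.

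The other lists with low medians held few separated genes. Glucocorticoid targets had a median of -0.18, with 10 of 17 lower and 2 of them without overlap. Tsc22d3, the glucocorticoid-induced leucine zipper gene, was at 11.86, 10.61 and 12.53 and then at 9.57, 12.42 and 10.11, which overlapped, and Fkbp5, a chaperone of the glucocorticoid receptor, differed by -0.73 with overlap. The sign of this median depended on single tumors, being 0.06 without 24 h replicate 1, 0.18 without 72 h replicate 1 and -0.66 without 72 h replicate 2. Immediate-early genes had a median of -0.26, with 16 of 22 lower and 0 without overlap, and it was -0.07 without 24 h replicate 3, -0.05 without 72 h replicate 1 and -0.44 without 24 h replicate 2. Fos, the AP-1 subunit, differed by -0.63, the nuclear receptor Nr4a3 by -0.89, Egr3 by -0.42, Fosl1 by -0.54 and Egr2 by 0.52.

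Ribosomal protein genes were lower in 18 of 20 cases, with 1 without overlap and a median of -0.31. Rps19 and Rps18 of the small subunit differed by -0.75 and -0.60, and Rpl11, Rpl8 and Rpl3 of the large subunit by -0.54, -0.46 and -0.41. The median was -0.09 without 72 h replicate 2 and also -0.09 without 24 h replicate 2. For the unfolded protein response the median was -0.19, with 8 of 14 lower and 0 lower without overlap. Atf4 and Ddit3, its stress transcription factors, differed by -0.69 and -0.58, Atf3 by -0.54 and the chaperone gene Hspa5 by -0.17, whereas the sestrin gene Sesn2 was 0.53 higher. The median was 0.13 without 72 h replicate 2.

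Tumor cell genes had small median differences. The adrenergic neuroblastoma list had a median of -0.18, with 10 of 13 lower and 2 of them without overlap, but without 72 h replicate 2 the median was 0.43. Th was at 11.91, 13.48 and 11.58 at 24 h and at 12.27, 10.46 and 13.32 at 72 h, a difference of -0.31 ± 0.93 (SE; limma adjusted p = 0.983). Phox2a was at 7.67, 10.12 and 7.81 and then at 9.35, 6.56 and 9.88, a difference of 0.06 ± 0.94 (SE). Ntrk3, a neurotrophin receptor gene, and Tbx2, a transcription factor of the adrenergic state, were lower without overlap, with differences of -0.77 and -0.66. The receptor kinase gene Alk differed by -0.68 and the transcription factor Isl1 by -0.69, both with overlap. Dlk1, a Notch ligand of chromaffin precursors, was at 8.73, 8.56 and 7.47 and then at 9.82, 7.34 and 9.19, whereas its controls were at 16.45, 15.65 and 10.12.

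Cell cycle genes were higher by a modest amount, though not in every tumor. Relative to the control mean, the list median was -1.03, -0.42 and -0.99 at 24 h. It was 0.38, -0.60 and 0.23 at 72 h, so 72 h replicate 2 lay within the 24 h range. All 21 measured were higher at 72 h, 6 without overlap, 10 at an unadjusted p below 0.05 and 0 at an adjusted one, with a median of 0.75 that was 1.04 without 72 h replicate 2. Mki67, the proliferation marker Ki-67, was at 14.71, 14.91 and 15.53 at 24 h and at 16.42, 15.88 and 15.76 at 72 h, with controls at 15.25 to 15.27. The 24 h and 72 h tumors did not overlap, and the difference was 0.97 ± 0.29 (SE; limma adjusted p = 0.77). Col1a1, the chain of fibrillar collagen I, overlapped widely, at 12.81, 7.81 and 11.89 and then at 10.62, 14.39 and 12.52, and differed by 1.67 ± 1.47 (SE; limma adjusted p = 0.917). The 22 fibroblast and collagen genes had a median of 0.73, and it was 0.04 without 72 h replicate 2 and 0.05 without 24 h replicate 2.

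**Figure D5:**
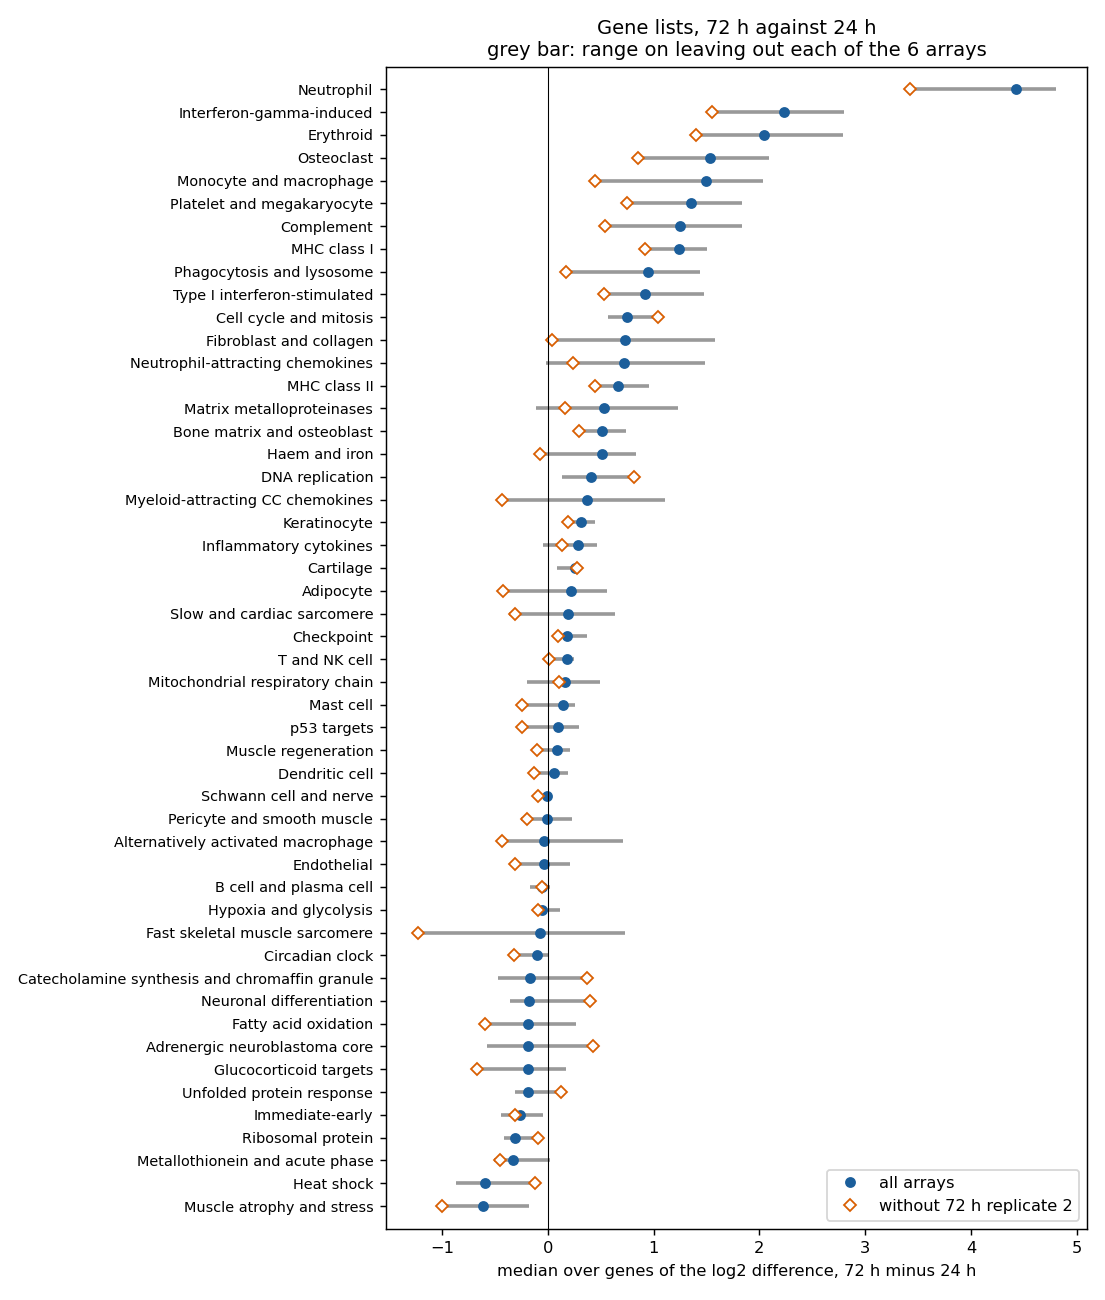
Median over the measured genes of each of the 50 lists (y axis) of the log2 difference, 72 h minus 24 h (x axis), with all arrays (filled circles) and without 72 h replicate 2 (open diamonds); grey bars span the medians obtained on leaving out each of the 6 arrays in turn. The neutrophil list is farthest right at 4.42, and the grey bars of the neutrophil, interferon-gamma, erythroid and MHC class I lists stay well above 0, whereas those of many lists near the bottom cross it.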

How the data were processed

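Log2 signals per probe set were deposited by the authors, made with Transcriptome Analysis Console 4.0 per the submitters' processing notes, from Affymetrix Mouse Clariom S arrays, 1 per tumor. The base of the logarithm follows from their range; the summarization method, the background correction and the build were not given in the sources used here. No scaling was added. Probe sets were named through the platform annotation and a RefSeq table of GRCm38.p6: 19572 had 1 symbol, 2634 had none, and 19505 symbols were distinct. A gene with several probe sets was represented by the one with the highest mean. Group means were fitted to all 12 arrays with limma 3.58.1 in R 4.3.3 (lmFit, eBayes), and the contrast 72 h minus 24 h was tested two-sided with Benjamini-Hochberg adjustment over 22206 probe sets (threshold 0.05). Errors are limma standard errors; ± SD in figures is over 3 arrays.

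The 50 gene lists and the genes named were chosen with earlier results of these data known, so no list was tested. Of 831 list genes 757 were measured. Named genes were 12 per direction by unadjusted p among those without overlap that differed by at least 1 log2 unit. Up to 4 members of each of the 8 highest and 8 lowest lists, those with the lowest unadjusted p, were added. So were genes of interest and the gene written first in these lists and in some others, whatever its value. Predicted genes, olfactory and vomeronasal receptors and small RNA genes were left out. The fit was tested on simulated data in which the spread of a probe set was the same in all groups. It found 14% of the probe sets changed by 1 log2 unit and 76% of those changed by 2. For changes of 4 and 6 log2 units it found 88% and 98%, and there were 4 false calls. A count of 0 thus says little about changes of 1 log2 unit. Motifs were searched on both strands of RefSeq promoter windows with Python 3.11.15, using the first window of each gene.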

Additional observations from a re-analysis of the deposited data

Results flagged for a closer look

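Arrays at 48 h were not compared here, yet 1 of them, 48 h replicate 3, had high signals for 5 of the 12 genes that led the list of those higher at 72 h than at 24 h. Each was at least 4 log2 units above the highest control, a margin chosen after seeing the data. Its log2 signal was 13.25 for Ngp, 10.49 for Mpo and 9.01 for Elane, all neutrophil granule genes, against at most 3.13, 3.56 and 4.33 in controls. It was 8.32 for Car1, of red cells, and 7.29 for Ctse, the cathepsin E gene, against at most 4.04 and 2.78 in controls. The other 48 h tumors reached no more than 4.79 for Ngp, 3.61 for Mpo, 4.31 for Elane, 4.44 for Car1 and 3.45 for Ctse.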

How the results depend on the processing

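The count of probe sets past the adjusted threshold, 0 in the reported fit, was also 0 on dropping the dimmest 25% of probe sets, with quantile normalization, with median centring, with an intensity trend and robust estimation, and with the muscle level as a covariate. It was 7 with array weights (Trim63, Cnksr1, Retreg1 and Fbxo32 lower, Ibsp, Mrgpra2b and Ltf higher), 2 with only the 6 arrays compared, and between 0 and 3 on leaving out each of the 6 arrays. Leaving out each 48 h or control array, added after seeing the data, gave 0 to 7. An unadjusted p below 0.05 with a 2-fold change gave 535, of which 426 were higher and 109 lower. With a replicate block the count was 0 (smallest adjusted p 0.602, 1090 at an unadjusted p below 0.05). The deviations of same-numbered tumors from their group means correlated at -0.57, -0.61 and -0.17, and those of unlike-numbered tumors at -0.35 to 0.60. With 3 arrays per group these values cannot decide whether the numbers pair tumors, and the reported fit used no pairing.

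On leaving out each of the 6 arrays, list medians ranged from 0.92 to 1.51 for MHC class I, from -0.58 to 0.43 for adrenergic neuroblastoma, from -0.66 to 0.18 for glucocorticoid targets, from -0.31 to 0.13 for the unfolded protein response and from -0.51 to 0.025 for metallothioneins and acute phase. With array weights the adrenergic median was 0.43 and the unfolded protein response median 0.15. Array weights also gave 0.68 for osteoclast, 0.45 for monocyte and macrophage, 0.80 for platelet, 0.53 for complement, -0.66 for glucocorticoid, -0.04 for ribosomal, -0.19 for heat shock and -1.32 for muscle atrophy genes, and dropping the dimmest probe sets gave 2.34 for osteoclast genes. These and the rest of the other 231 list values moved by less than the spread between arrays. Genes whose sign turned on leaving out an array were Alas2 (-0.20 to 2.08), Pf4 (-0.12 to 2.22), Arg1 (-1.61 to 0.66), Acta1 (-0.30 to 0.23), Th (-0.96 to 0.47), Isl1 (-1.06 to 0.045), Phox2a (-0.58 to 1.08), Mrc1 (-0.15 to 1.39), Cd163 (-1.19 to 0.71) and Per1 (-0.49 to 0.61). With array weights Pf4 was -0.23, Th 0.61, Mrc1 -0.33 and Per1 -0.065. With quantile normalization Acta1 was 0.0043, Phox2a -0.032 and Per1 -0.10, and with median centring Phox2a was -0.015 and Per1 -0.058. Of 1439 gene and setting pairs 1394 kept direction and call. The cause was not tested. Dim probe sets have differences limited by background.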

Other observations

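Genes of the circadian clock differed in opposite directions between 72 h and 24 h. Dbp, a clock-controlled transcription factor gene, was at 9.16, 9.81 and 8.60 at 24 h and at 10.88, 15.54 and 10.48 at 72 h, with controls from 10.35 to 11.20. It did not overlap and differed by 3.11 ± 1.12 (SE; limma adjusted p = 0.841), and by 1.49 without 72 h replicate 2. Arntl, the BMAL1 gene, was at 9.42, 8.08 and 8.29 and then at 7.13, 7.68 and 8.13, with overlap, and differed by -0.95 ± 0.38 (SE; limma adjusted p = 0.845). Clock, its partner, named after its values were seen, was lower without overlap, with a difference of -0.53. The repressor genes Nr1d1 and Per1 differed by -0.51 and 0.02 with overlap. Of 17 clock genes 6 were higher and 11 lower, with a median of -0.10, which ranged from -0.32 to 0.01 on leaving out each array.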
